A study of Mus musculus with 13 samples.

Results

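Regions of open chromatin that lie far from any transcript start and are nevertheless among the strongest in limb and forebrain alike were examined in mouse embryos at E12.5. The members were chosen by measured values: in each of 12 ATAC-seq libraries the 50000 strongest regions on chromosomes 1 to 19 were kept (chromosome 2 below 75 Mb), the lists were merged, and a merged region was taken when all 12 lists overlapped it and when it lay more than 10 kb from every transcript start. Of 112414 merged regions, 18691 (16.6%) were overlapped by all 12 lists, and 3762 of these were distal members, which is 20.1% of the regions shared by all lists and 6.10% of the 61668 distal regions. Presence in every list is thus what defined the members and is not a result.

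ATAC-seq marks open chromatin by the sites at which the Tn5 transposase places sequencing adapters. Each library was made from 50000 cells of embryos of the B6CBAF1 background, either wild-type (wt) or homozygous for allele 542, and each group had 2 replicates of distal forelimb (DFL), proximal forelimb (PFL) or forebrain (FB). Allele 542 carries II1, a distal limb enhancer whose native place is the centromeric domain of the HoxD cluster (C-DOM), once more in the telomeric domain (T-DOM), where it was inserted with an HBB promoter and a LacZ reporter. Allele 542 is 1 founder line, the study's methods describe each replicate as a separate pool of several embryos, and wt reads were aligned to mm10 while 542 reads were aligned to a genome carrying the insertion, so genotype and mapping genome cannot be told apart. An earlier wt DFL library entered neither the choice of members nor any group and is given separately.

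Open distal chromatin is usually read as regulatory DNA. Most enhancers are open in the cells that use them and closed elsewhere, whereas insulators are open in nearly all cells. Many insulators are bound by CTCF, a zinc finger protein that recognizes a long, largely invariant motif and, together with cohesin, anchors chromatin loops and the borders of topologically associating domains (TADs) such as those that flank the HoxD cluster.

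The 12 lists came from libraries of about 37.5 to 70.7 M tags, an estimate from the local background, with 85104 to 118339 called regions. The value used throughout is the deposited fold, the tags at a summit over the local background of the same library, together with its percentile among the 50000 regions of that list. The promoter of Hoxa13, a gene of distal limb cells, had a fold of 8.80 to 10.1 in the 4 DFL and 4.56 to 6.38 in the 4 PFL libraries, and it was called in 1 of 4 FB libraries. The promoter of Twist1, a gene of limb mesenchyme, had a fold of 8.80 to 11.6 in the 8 forelimb and 4.57 to 5.14 in the 4 forebrain libraries. Among forebrain genes, the Dlx2 promoter had a fold of 5.47 to 7.12 in FB and of at most 5.11 in forelimb, but that of Emx2 was called in all 12 libraries with overlapping values. Other markers went against the labels. The Neurog2 promoter, of a neural gene, had a mean fold of 7.97 in FB, 9.38 in DFL and 9.97 in PFL. Those of the limb genes Prrx1 and Msx1 had means of 7.25 and 8.73 in FB, above the 5.38 and 6.98 in DFL and the 4.80 and 7.54 in PFL. That of Meis2, a gene of the proximal limb, had 10.2 in DFL and 5.82 in PFL. Of 8 promoters of blood, endothelial, muscle and ectoderm genes, Klf1, Kdr, Myod1 and Epcam were called in all 12 libraries, Myf5 and Trp63 in 6 forelimb libraries each, Cdh5 in 2 and Gata1 in none. The part of such cells in the results was not tested, and fewer open cells cannot be told apart from less opening per cell in these bulk samples.

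Some members carry letters that match the core of the CTCF motif near the point of opening, and 6 of them are shown. The core was searched as CCANNAGNNGGC on both strands in the 200 bp around the strongest summit of each region. The 6 windows printed here are those of the members with the highest mean percentile of fold among members with a core within 50 bp of the summit, 1 chromosome left out, so they show where the core lies and not how often it occurs. Capitals mark the core, each sequence is given 5′ to 3′ on the strand on which the core reads forward, and coordinates are those of GRCm38 (mm10).
Region near Ccne1, chr7:38084905-38085104, plus strand: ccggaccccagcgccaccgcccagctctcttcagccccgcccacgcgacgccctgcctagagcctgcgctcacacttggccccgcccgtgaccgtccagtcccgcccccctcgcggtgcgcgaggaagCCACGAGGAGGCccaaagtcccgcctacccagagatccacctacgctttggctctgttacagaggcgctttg
Region near Phlda3, chr1:135753044-135753243, minus strand: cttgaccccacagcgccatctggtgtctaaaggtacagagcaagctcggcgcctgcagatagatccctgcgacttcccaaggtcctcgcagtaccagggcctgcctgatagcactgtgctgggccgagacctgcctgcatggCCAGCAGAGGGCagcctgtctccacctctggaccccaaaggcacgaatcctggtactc
Region in Cntnap2, chr6:46961378-46961577, minus strand: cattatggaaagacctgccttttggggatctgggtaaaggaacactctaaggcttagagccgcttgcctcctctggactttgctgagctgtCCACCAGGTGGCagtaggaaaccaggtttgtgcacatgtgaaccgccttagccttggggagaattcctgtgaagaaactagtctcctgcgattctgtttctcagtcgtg
Region near Gm21321, chr10:7333445-7333644, plus strand: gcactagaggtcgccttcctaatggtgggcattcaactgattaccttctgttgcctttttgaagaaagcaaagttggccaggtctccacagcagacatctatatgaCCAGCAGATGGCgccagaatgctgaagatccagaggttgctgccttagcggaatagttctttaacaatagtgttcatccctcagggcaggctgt
Region near Nfkb1, chr3:135731391-135731590, plus strand: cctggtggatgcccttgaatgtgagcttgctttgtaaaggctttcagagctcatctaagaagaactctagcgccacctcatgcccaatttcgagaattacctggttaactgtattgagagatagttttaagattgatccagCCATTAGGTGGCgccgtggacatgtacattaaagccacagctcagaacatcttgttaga
Region near Gm47711, chr13:37312636-37312835, minus strand: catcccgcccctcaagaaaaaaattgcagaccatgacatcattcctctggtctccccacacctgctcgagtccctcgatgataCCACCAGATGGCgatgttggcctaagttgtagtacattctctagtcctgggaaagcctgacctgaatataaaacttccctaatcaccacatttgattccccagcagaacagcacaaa

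The window near Ccne1, the gene of cyclin E1, had a GC content of 70.0% and the region's fold was 17.9 to 19.2 in the 8 forelimb and 19.4 to 20.6 in the 4 forebrain libraries. The region in an intron of Cntnap2, a neuronal adhesion gene, lay 83.3 kb from the nearest start, with folds of 14.97 to 18.3 in forelimb and 20.3 to 22.6 in forebrain. The region near Nfkb1, a subunit of NF-kappaB, lay 39.7 kb from the nearest start, with folds of 13.7 to 18.9 in forelimb and 18.3 to 20.02 in forebrain. High folds in both tissues follow from how these members were picked. Their cores lay between 3 and 48 bp from the summit.

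The CTCF core was present in 936 of 3762 members, or 24.9% (95% exact Clopper-Pearson interval 23.5 to 26.3%). In windows 2 kb to either side of the same summits it was present in 1.21% (0.975 to 1.48%, 7524 windows). The share was 1.24% (0.892 to 1.67%) among 3398 distal regions held by all 8 forelimb and no forebrain lists, and 1.63% (1.34 to 1.97%) among 6557 distal regions held by all 4 forebrain and no forelimb lists. It was 0.626% among 1437 regions of DFL lists only and 1.23% among 1383 regions of PFL lists only. Promoters shared by all 12 lists, 12183 regions within 1 kb of a start, held it in 4.66% (4.30 to 5.05%). Among all 61668 distal regions the share was 5.42%. The members' interval lies above those of the flanks and of the forelimb-only, forebrain-only and shared promoter regions. It overlaps the interval of the distal regions held by 11 lists (21.2%, 18.9 to 23.7%), the class most like the members. The intervals cover counting error only, and they treat regions as separate draws.

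A core search misses sites that depart from its fixed letters. A weight matrix was therefore built from 481 core matches of members on even-numbered chromosomes and applied to odd-numbered chromosomes, at a score that 0.978% of flanking windows passed. It was passed by 740 of 1892 members (39.1%, interval 36.9 to 41.4%), against 5.11% of promoters shared by all lists, 0.471% of forelimb-only and 1.64% of forebrain-only distal regions. In the matrix, the first variable base of the core was C in a fraction of 0.534 and G in 0.391 of sites, the third was G in 0.503 and A in 0.476, and the base after the core was A in 0.642, none of which was fixed by the search.

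**Figure D1:**
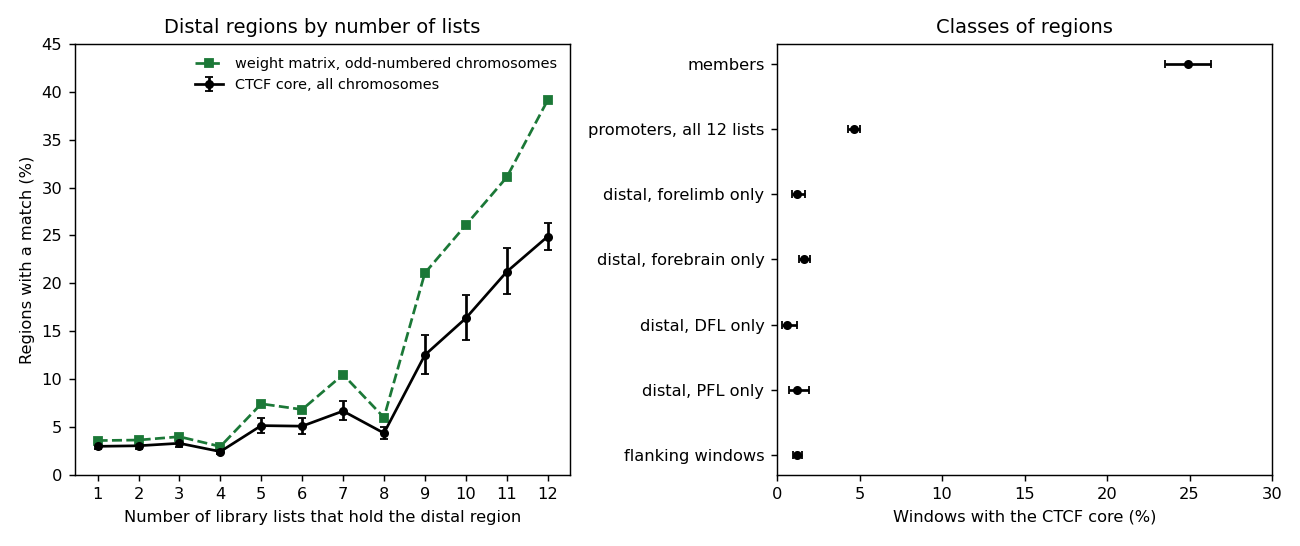
Share of 200 bp windows with the CTCF core (black, with 95% exact binomial intervals) or passing the weight matrix (green, odd-numbered chromosomes), by the number of lists that hold a distal region (left), and with the core by class of region (right). The core share lies between 2.42% and 6.66% for 1 to 8 lists and reaches 24.9% at 12 lists, the members.

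The share changed with how widely a distal region was open. It was 2.97% of the 15276 regions held by 1 list and 2.42% of those held by 4 lists. It was 4.35% of regions held by 8 lists, then 12.51% at 9, 16.4% at 10, 21.2% at 11 and 24.9% at 12 lists. Regions in exactly 4 or 8 lists include many that are limited to the 4 forebrain or the 8 forelimb libraries, and both values lie below those of the neighbouring numbers. GC content moved in the same way, from a mean of 45.6% at 1 list to 50.7% at 12, and its part in the core share was not tested.

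The core lay close to the strongest summit in most members that hold it. The search covered only the 200 bp around that summit, which limits how far away a core can lie. The middle of the core lay a median of 17 bp to either side of the strongest summit, with a median signed offset of 2 bp. It was within 25 bp in 666 of the 936 members (71.2%) and within 50 bp in 883 (94.3%). It read forward on the plus strand in 453 and on the minus strand in 483 members, and 12 members held 2 or more cores. Members with a core were narrower, with a median width of 720 bp against 943 bp without. Their summits also varied less between libraries: the SD of the summit's position over the 12 libraries had a median of 10.1 bp with a core and 14.5 bp without, and an upper quartile of 12.9 bp against 50.8 bp.

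**Figure D2:**
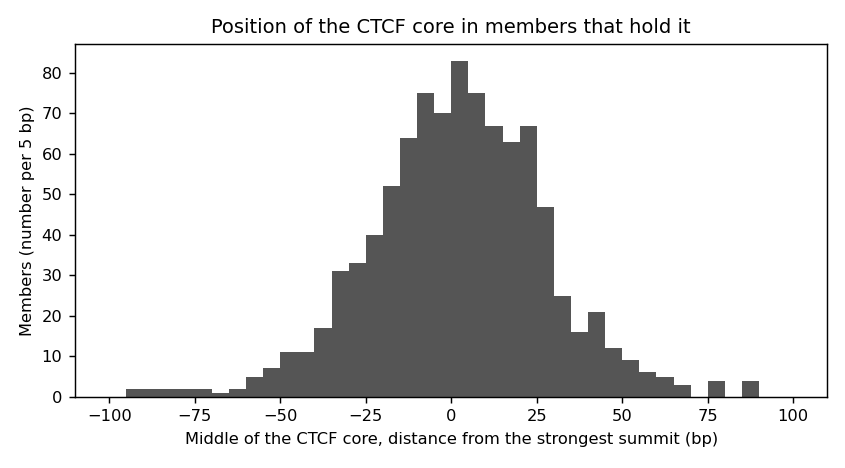
Signed offset in bp from the strongest summit to the middle of the CTCF core in the 936 members that hold one, in bins of 5 bp. The signed offsets have a median of 2 bp and their sizes a median of 17 bp, with 883 members within 50 bp.

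Other motifs were compared in the same windows. SP/KLF boxes (GGGCGGG), which mark CpG-rich promoters, were in 6.01% of member windows, 46.7% of shared promoters and 1.156% of flanks. The homeodomain core TAATTA was in 5.32% of members, below the 12.7% of all distal regions and the 28.3% of forebrain-only regions. The E-box CAGCTG, a site of basic helix-loop-helix factors, was in 19.7% of members, 21.4% of all distal regions and 8.03% of flanks. The TEAD motif ACATTCC was in 3.85% of members and 9.21% of forelimb-only regions. CCAAT was in 24.0% of member windows and in 26.3% of flanking windows, the GATA-factor site (letters AGATAA) in 5.29% and 11.9%, AP-1 (TGANTCA) in 5.02% and 6.53%, and SOX (ACAATGG) in 2.68% and 3.23%. The 6 longer motifs searched, for NFI, CRE, ETS, YY1, NRF1 and RE1, were each in less than 1% of members, so that their comparisons rest on few windows. NRF1 was in 13 members (0.346%) and 1 of 7524 flanks (0.0133%), NFI in 8 (0.213%) and 1, CRE in 23 (0.611%) and 9 (0.120%), and ETS in 19 (0.505%) and 8 (0.106%). YY1 was in 22 members (0.585%) and 24 flanks (0.319%), and RE1 in 13 and 9. All were searched on both strands, and no match says only that these letters are not in the window.

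Member windows had a mean GC content of 50.7 ± 7.65% (SD over 3762 windows), between the 65.7 ± 8.73% of shared promoters and the 43.6 ± 7.40% of flanks. The ratio of observed to expected CpG was 0.323 in members and 0.788 in promoters. A CpG-rich window, with at least 50% GC and a ratio of at least 0.6, was found in 339 members (9.01%) against 78.5% of shared promoters, and 43 of those 339 held the CTCF core. On average 7.25% of a member window was marked as repeat in the reference, against 26.5% of a flanking window. The share was 7.20% in forelimb-only, 6.965% in forebrain-only, 10.05% in DFL-only and 8.44% in PFL-only distal regions. A share below that of the flanks was thus not particular to the members. No member held a 25-base word of the mitochondrial genome, which 1 of all 18691 shared regions did.

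Members lay a median of 25.1 kb from the nearest transcript start, with quartiles of 15.8 and 46.5 kb. There were 840 beyond 50 kb, 237 beyond 100 kb and 47 beyond 200 kb. By the strongest summit, 2243 members (59.6%) were intergenic, 1419 (37.7%) intronic and 100 (2.66%) exonic in GENCODE M21, and 1268 of the intronic ones lay in protein-coding genes. The core share was 25.1% in intergenic, 24.8% in intronic members, and 20 of the 100 exonic members held it. Neighbouring members were separated by a median of 304.5 kb, and 4.78% of the gaps were under 10 kb. The density ran from 1.14 members per Mb on chromosome 7 to 1.98 on chromosome 16.

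The 3 members farthest from a start were all intronic. One in Ptprd, a receptor phosphatase gene, lay 600.0 kb from the nearest start at chr4:77558508-77559194. Its fold was 6.18 to 10.8 in forelimb and 12.84 to 14.04 in forebrain libraries, without overlap. A second in Ptprd, 560.6 kb from a start at chr4:77519069-77519766, had folds of 6.60 to 12.4 and 12.48 to 13.9. The third, in the cadherin gene Cdh12, lay 356.8 kb from a start at chr15:21536946-21537587 with folds of 6.92 to 10.7 and 8.74 to 11.3, which overlap.

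Members stood above the middle of each list, and below promoters. Their median percentile was 66.2 to 70.5 over the 12 libraries, against 84.5 to 85.9 for shared promoters, and their median fold was 7.85 to 9.17 in the 8 forelimb and 9.63 to 10.7 in the 4 forebrain libraries. These levels follow in part from the rule. The deposited fold was thus higher over members in all 4 forebrain libraries, while the percentiles of the tissues overlapped. The median tags under a member's summit were 46 to 78 in forelimb and 76 to 113 in forebrain libraries. A member's percentile had a median SD of 12.47 points over the 12 libraries. In 1328 members (35.3%) the percentile was 50 or more in all 12 libraries, in 39 it was 90 or more in all 12, and in 52 it was below 50 in all 12.

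**Figure D3:**
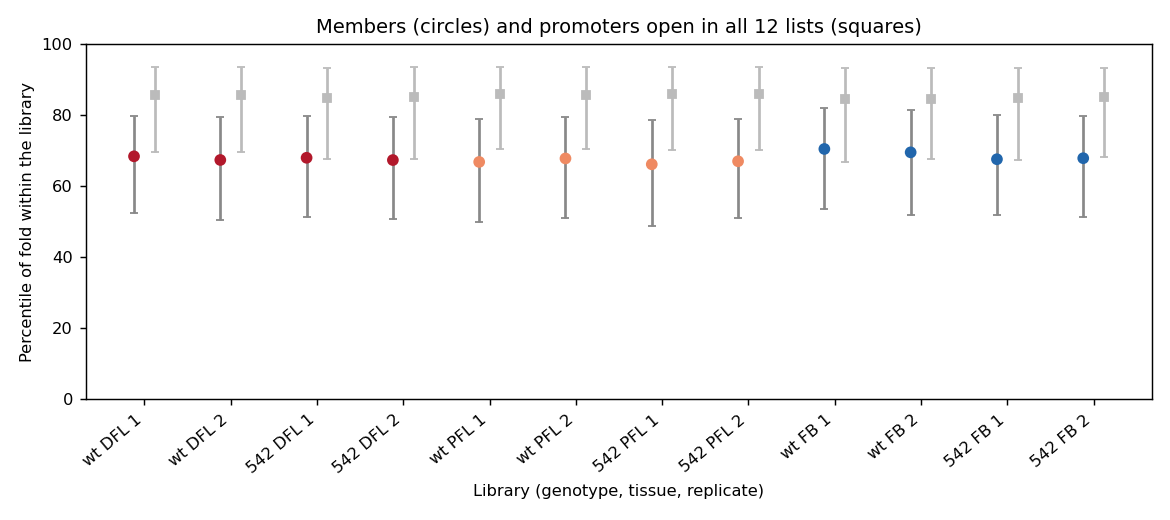
Percentile of fold within each library's list of 50000 regions, for members (circles, coloured by tissue) and for promoters shared by all 12 lists (grey squares), as medians with quartiles. Member medians lie between 66.2 and 70.5 in all libraries.

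The 5 members with the highest mean percentile were at chr6:103649070-103649386 in an intron of Chl1, chr16:57391211-57391773 in an intron of Filip1l and Cmss1, chr18:68691969-68692396, chr6:49236351-49236684 and chr17:17004562-17005483. The one in Chl1 had a fold of 31.4 to 38.3 in forelimb and 39.1 to 41.1 in forebrain, and its window had only 32.5% GC. The one in Filip1l had a window of 72.0% GC and folds of 29.9 to 33.3 in forelimb and 31.6 to 34.8 in forebrain. None of the 5 held a CTCF core. No list of regions with excess signal was applied here, and whether any of them is such a region was not tested.

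The steadiest members, those with the smallest SD of normalised log2 fold among members with a mean percentile above the median, were the region in Filip1l (SD 0.03), chr18:5989492-5990367 (SD 0.04) and chr13:55189656-55190836 near Nsd1 (SD 0.05). The last lay 18946 bp from the nearest start, with folds of 16.9 to 19.7 in the 8 forelimb and 19.6 to 21.1 in the 4 forebrain libraries. Nsd1 encodes a histone methyltransferase, and the region is also the strongest member within 1 Mb of the start of Pitx1, a gene of hindlimb identity.

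To ask how far regions open in every tissue still differ between tissues, log2 fold was quantile-normalised over the 12 libraries and fitted with limma on all 18691 regions shared by the lists, with Benjamini-Hochberg adjustment over all of them at 0.05. Between forebrain and forelimb, 881 members (23.4%) were higher in forebrain and 658 (17.5%) higher in forelimb, against a background of 15.3% and 16.1% of all regions tested, and 2223 passed in neither direction. Among shared promoters the shares were 11.3% and 15.8%. Most differences were modest. The middle 90% of members lay between -0.66 and 0.65 on the log2 scale, the SD was 0.40 in members and 0.30 in all regions, and among the called members only 26 were over 2-fold higher in forebrain and 51 over 2-fold higher in forelimb. The rule itself limits how far a member can differ, since a region that drops from 1 list is no member. The direction depended on scaling: on the fold as deposited, 1669 members were called higher in forebrain and 438 in forelimb, and the normalised split is relative to the distribution over all 18691 shared regions. With the mean fold of all summits in place of the strongest, the calls fell to 406 and 362.

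**Figure D4:**
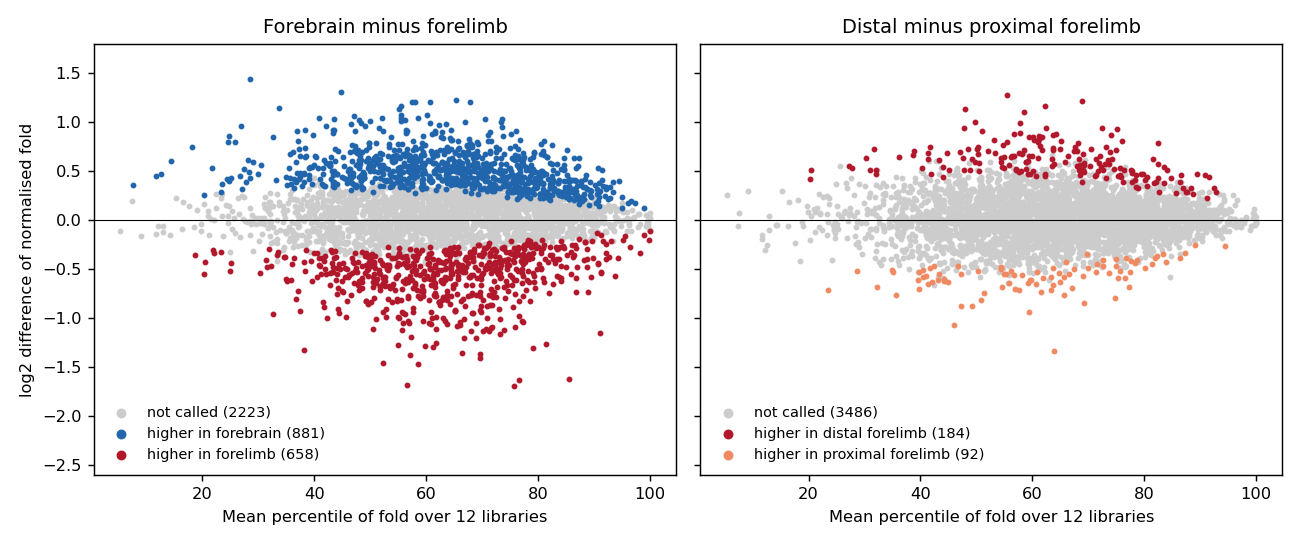
Difference in normalised log2 fold of each of the 3762 members against its mean percentile over the 12 libraries, for forebrain minus forelimb (left) and distal minus proximal forelimb (right). Coloured points passed limma at an adjusted p under 0.05: 881 and 658 members on the left, 184 and 92 on the right.

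The members highest in forelimb against forebrain lay in or near genes of varied function. The region in an intron of Vegfc, a lymphatic growth factor, at chr8:54162994-54164132, had a fold of 16.2, 18.5 and 20.2 as lowest, median and highest in forelimb, and of 5.49, 7.38, 5.95 and 6.16 in the 4 forebrain libraries. The groups did not overlap, and normalised fold was 3.22 times higher in forelimb (log2 difference of forebrain minus forelimb -1.69, SE 0.08, limma adjusted p = 2.48e-08). In an intron of Col4a4, a basement membrane collagen gene, at chr1:82476220-82477373, the fold was 9.69, 12.7 and 15.2 in forelimb and 4.70, 3.74, 3.67 and 4.23 in forebrain (-1.68, SE 0.10, limma adjusted p = 4.08e-07). In an intron of Celf4, a neuronal RNA-binding protein gene, at chr18:25667973-25668583, it was 20.8, 23.3 and 25.7 in forelimb and 8.49, 7.68, 7.67 and 10.1 in forebrain (-1.62, SE 0.07, limma adjusted p = 1.59e-08). This region was thus weaker in the tissue in which the gene that holds it is best known. In an exon of Csgalnact1, an enzyme of chondroitin sulfate synthesis, at chr8:68556686-68557562, the fold was 10.5, 11.7 and 15.4 in forelimb and 5.83, 4.60, 4.39 and 4.15 in forebrain (-1.47, SE 0.11, limma adjusted p = 1.58e-06).

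The remaining one of the 5 forelimb regions lay at chr5:27737054-27737718, 13.6 kb from the start of Paxip1, and is the strongest member within 1 Mb of the start of Shh, the signal of the posterior limb margin, 729.9 kb from it. Its fold was 16.4, 18.2 and 19.2 as lowest, median and highest of the 8 forelimb libraries and 6.77, 5.25, 6.21 and 7.85 in forebrain (-1.63, SE 0.08, limma adjusted p = 2.74e-08). It was the only one of the 10 regions named for a forebrain or forelimb difference that held a CTCF core, 53 bp from its summit.

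The 5 members highest in forebrain lay 10.1 to 190.2 kb from the nearest start, and 1 was intronic. At chr13:3712047-3713192 the fold was 10.3, 11.3, 11.3 and 10.6 in forebrain and 2.77, 3.38 and 5.14 as lowest, median and highest in forelimb. Normalised fold was 2.71 times higher in forebrain (log2 difference 1.44, SE 0.09, limma adjusted p = 2.85e-07), the only one of the 10 whose forelimb fold was below 4 in several libraries. At chr10:104661453-104662362, 190.2 kb from the nearest start, the fold was 16.2, 13.1, 14.5 and 14.5 in forebrain against 4.50, 5.18 and 6.60 (1.31, SE 0.10, limma adjusted p = 1.35e-06). At chr12:37773606-37774823, 42.9 kb from the start of Dgkb, a diacylglycerol kinase gene of the brain, it was 15.8, 16.7, 15.5 and 16.4 against 5.28, 6.21 and 7.33 (1.21, SE 0.10, limma adjusted p = 2.59e-06). In an intron of Pdlim5, a gene of the actin cytoskeleton, at chr3:142318124-142318633, it was 16.1, 16.9, 16.4 and 16.2 against 5.19, 5.94 and 9.77 (1.21, SE 0.10, limma adjusted p = 2.79e-06). At chr18:43726865-43727412, 10.1 kb from the start of Spink1, forebrain folds were 21.2, 21.4, 14.8 and 16.9 and forelimb folds 5.28, 6.91 and 10.3 (1.23, SE 0.13, limma adjusted p = 1.48e-05). In this region the wt forebrain libraries were the higher pair.

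The CTCF core went with the direction of the tissue difference. It was present in 28.4% (26.6 to 30.4%) of the 2223 members that passed in neither direction and in 27.7% (24.8 to 30.8%) of the 881 higher in forebrain, but in 9.12% (7.03 to 11.6%) of the 658 higher in forelimb. The weight matrix on odd-numbered chromosomes gave 44.6%, 43.3% and 15.8%. Read the other way, 60 of 936 members with a core (6.41%) were higher in forelimb against 598 of 2826 without (21.2%), while 26.1% and 22.5% were higher in forebrain. The median log2 difference was 0.14 with and 0.03 without a core, and the SD 0.31 and 0.41. Within libraries, the median percentile of members with a core was 70.2 to 74.5 in the 4 forebrain and 65.4 to 68.9 in the 8 forelimb libraries, without overlap. That of members without a core was 66.7 to 68.8 in forebrain and 66.4 to 68.8 in forelimb. The forebrain libraries were among the deepest, 51.4 to 70.7 against 37.5 to 54.5 M tags, and the part of depth in this difference was not tested.

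Members higher in forelimb held the TEAD motif in 6.38% (4.64 to 8.53%), against 2.61% (1.66 to 3.89%) of those higher in forebrain, and the E-box in 25.8% against 18.4%. The GATA letters were in 2.58% of the members higher in forelimb and in 8.40% of those higher in forebrain. The homeodomain core, found in 28.3% of forebrain-only distal regions, was in 7.83% (6.15 to 9.81%) of members higher in forebrain, 5.93% (4.25 to 8.01%) of those higher in forelimb and 4.14% (3.35 to 5.05%) of those that passed in neither direction. The intervals of the first 2 overlap.

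Distal and proximal forelimb cells differed at fewer members. With limma, 184 members (4.89%) were higher in DFL and 92 (2.45%) in PFL, against 2.22% and 1.33% of all 18691 regions, and 6 and 2 of these exceeded 2-fold. Leaving out single libraries, which also leaves a group with 1 library, lowered the counts. They fell to 100 and 58 without wt DFL replicate 1, to 83 and 45 without wt DFL replicate 2 and to 110 and 46 without wt PFL replicate 1. The DFL count was 114 and 116 without either 542 DFL replicate, and the PFL count was 43 without wt PFL replicate 2 and 61 without 542 PFL replicate 1. With the mean fold of all summits only 20 and 4 were called.

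**Figure D5:**
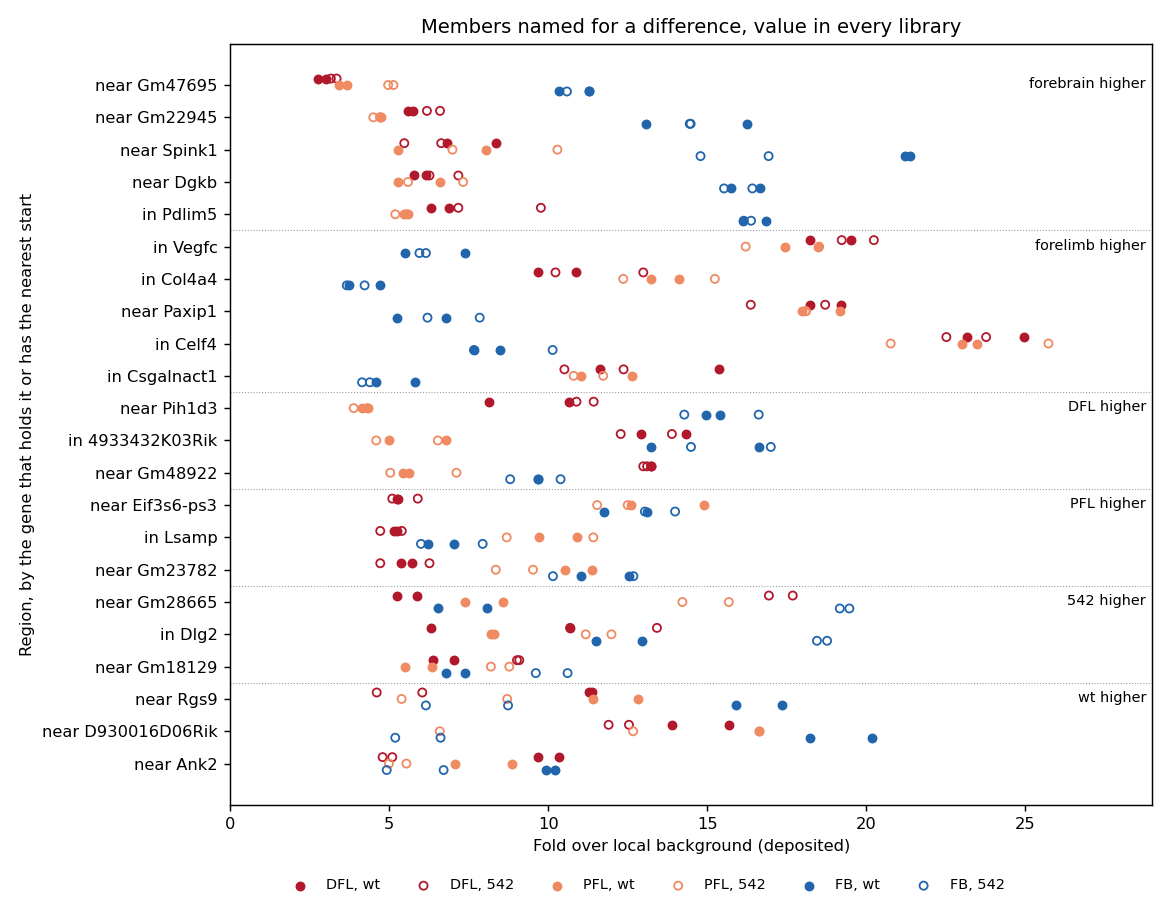
Deposited fold in each of the 12 libraries for the 22 members named for a difference between tissues or genotypes, with wt as filled and 542 as open circles. The dotted lines separate the 6 sets, and in the region near Gm28665 all 542 libraries lie above 14 and all wt libraries below 9.

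At chr1:31232912-31234135, 10.1 kb from the start of Pih1d3, the 4 DFL folds were 10.7, 8.15, 10.9 and 11.4, against 4.34, 4.14, 4.31 and 3.88 in PFL. Normalised fold was 2.43 times higher in DFL (log2 difference of DFL minus PFL 1.28, SE 0.11, limma adjusted p = 0.000252), and forebrain folds were higher than both, at 14.3 to 16.6. At chr7:121549299-121550347, in an intron of the transcript 4933432K03Rik, DFL folds of 12.3 to 14.3 stood against PFL folds of 4.59 to 6.78 and FB folds of 13.2 to 17 (1.21, SE 0.13, limma adjusted p = 0.000689). At chr14:87619306-87620316 the 4 DFL folds lay between 12.99 and 13.23, the PFL folds between 5.04 and 7.12 and the FB folds between 8.81 and 10.4 (1.17, SE 0.13, limma adjusted p = 0.000689). The call of this last region was lost with the mean fold of all summits (limma adjusted p = 0.0821).

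Higher in PFL was chr17:15977114-15978017, 131.8 kb from the nearest start, where the 4 PFL folds ran from 11.5 to 14.9 and the 4 DFL folds were 5.27, 5.25, 5.90 and 5.10. Forebrain folds were 11.7 to 13.99, so that DFL was the low tissue (DFL minus PFL -1.33, SE 0.10, limma adjusted p = 9.00e-05). In an intron of Lsamp, a neuronal adhesion gene, at chr16:41975092-41976119, the PFL folds were 9.70, 10.9, 11.4 and 8.70, those of DFL 4.72 to 5.40 and those of FB 6.001 to 7.94 (-1.07, SE 0.13, limma adjusted p = 0.00140). At chr1:138021871-138023335 the ranges were 8.35 to 11.4 for PFL, 4.72 to 6.27 for DFL and 10.2 to 12.7 for FB (-0.94, SE 0.12, limma adjusted p = 0.00191). Both last calls were lost with the mean fold of all summits (limma adjusted p = 0.0856 and 0.0878).

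Among these members some motifs differed between the directions and others did not. The E-box CAGCTG was in 37.0% (27.1 to 47.7%) of the 92 members higher in PFL and in 13.6% (8.99 to 19.4%) of the 184 higher in DFL, beside 29.9% of PFL-only and 13.2% of DFL-only regions. TAATTA was in 15.2% (10.4 to 21.2%) of members higher in DFL and in 1.09% (0.0275 to 5.91%) of those higher in PFL, beside 16.4% and 3.11% in the DFL-only and PFL-only regions. The TEAD motif was in 5.43% and 4.35% of members higher in DFL and in PFL, beside 5.64% and 9.76% in those regions, and SOX in 8 of 184 and 0 of 92, beside 1.74% and 2.68%. The CTCF core was in 9.78% (5.90 to 15.02%) and 18.5% (11.2 to 27.9%), against 25.8% of the 3486 members that passed in neither direction.

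Genotypes differed at few members. Over the 3 tissues, 16 members (0.425%) were higher in 542 and 15 (0.399%) in wt by limma, against 0.268% and 0.268% of all 18691 regions, and in 5 and 9 of these (0.133% and 0.239% of members, against 0.0910% and 0.107% of all regions) the values of the 6 wt and the 6 542 libraries did not overlap after normalization. No member passed limma's test of whether the difference between forebrain and forelimb itself differed between genotypes, where 0.00535% of all regions passed. At an unadjusted p under 0.05 the difference was larger in 542 in 132 members (3.51%, against 3.68% of all regions) and larger in wt in 246 (6.54%, against 3.38%). Leaving out most of the libraries, 1 at a time, lowered the counts of 16 and 15 members called for genotype. Each such fit also left a group with 1 library. The 542 count was 3 to 10 without any library other than 542 DFL replicate 2, wt PFL replicate 2 or 542 FB replicate 2. The wt count was 4 to 8 without any library other than either 542 DFL replicate or 542 PFL replicate 1. With the mean fold of all summits they were 2 and 5. The 542 count was 5 with log2 fold as deposited and 10 with the earlier library added, and the wt count was 9 with the replicate number as a block. Of the 16 members higher in 542, 5 were on chromosome 7, which held 166 of the 3762 members. On chromosome 2, which carries the insertion and held 147 members, 1 was higher in 542. Of the 15 higher in wt, 1 was on chromosome 7, 1 on chromosome 2 and 3 on chromosome 6. The spread over chromosomes was not tested. Estimated depth also differed between genotypes. It was 44.0 to 54.5 M tags in wt DFL and 40.2 to 41.3 in 542 DFL. In PFL it was 48.8 to 52.6 in wt and 37.5 to 37.9 in 542. In FB the values overlapped, 56.6 to 70.7 in wt and 51.4 to 64.5 in 542. The part of depth in the genotype calls was not tested.

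The largest difference among the named members was at chr7:48131724-48132585, 14.3 kb from the start of Gm28665. Its fold was 5.86 and 5.25 in wt DFL, 7.40 and 8.59 in wt PFL and 6.54 and 8.09 in wt FB. The 542 libraries had folds of 17.7 and 16.9 (DFL), 15.7 and 14.2 (PFL), and 19.5 and 19.2 (FB). Each tissue showed it, and normalised fold was 2.59 times higher in 542 (log2 difference of 542 minus wt 1.37, SE 0.08, limma adjusted p = 2.43e-06). The other members named for a higher fold in 542 were smaller in size and less stable. In an intron of Dlg2, a synaptic scaffold gene, at chr7:92093612-92094265, wt folds of 6.30 to 12.96 stood against 542 folds of 10.7 to 18.8 (0.62, SE 0.11, limma adjusted p = 0.0290), and the call was lost without any of 9 single libraries, at adjusted p of 0.0573 to 0.0945, with log2 fold as deposited (limma adjusted p = 0.0579) and with the mean fold of all summits (limma adjusted p = 0.338). At chr7:60243808-60244096 it was 5.49 to 7.39 and 8.20 to 10.6 (0.57, SE 0.09, limma adjusted p = 0.0139), and the call was lost without wt FB replicate 1, wt FB replicate 2 or 542 FB replicate 1 (limma adjusted p = 0.0546, 0.0531 and 0.0685) as well as in windows of 500 bp on the summits (log2 difference 0.02) and with the mean fold of all summits (limma adjusted p = 0.103).

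Higher in wt was chr11:109312001-109312665, 13.9 kb from the start of Rgs9, a regulator of G-protein signalling. Its fold was 11.3, 12.1 and 17.4 as lowest, median and highest of 6 wt libraries and 4.61, 6.10 and 8.74 in 542 (-0.98, SE 0.12, limma adjusted p = 0.00289). At chr5:104571202-104572014 the fold was 13.9, 16.6 and 20.2 in wt and 5.19, 9.26 and 12.7 in 542, with the lowest 542 values in forebrain, 5.19 and 6.62 (-0.89, SE 0.11, limma adjusted p = 0.00289). At chr3:126903498-126903905, 20.1 kb from the start of Ank2, the ankyrin B gene, it was 7.09, 9.80 and 10.3 in wt and 4.79, 5.05 and 6.71 in 542 (-0.74, SE 0.10, limma adjusted p = 0.00546). In each of these 3 regions the wt and 542 values did not overlap.

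The earlier wt DFL library gave a view of the members that the rule had not used. Its 50000 strongest regions overlapped 3541 of 3762 members, or 94.1% (exact interval 93.3 to 94.9%). The share was 79.1% of distal regions held by 11 lists, 85.2% of those held by 8, 19.1% of those held by 4 and 7.74% of those held by 1. It was 99.3% for shared promoters and 1.48% for forebrain-only distal regions. For forelimb-only distal regions it was 93.7% (92.8 to 94.5%), an interval that overlaps the members'. The 221 members that it missed had a median mean percentile of 50.0, against 64.4 for all members. Its folds were 14.4, 17.2 and 14.3 at the 3 members named as higher in DFL, and none of the 3 named as higher in PFL was in its list. At the regions near Rgs9, at chr5:104571202-104572014 and near Ank2 its folds were 12.96, 15.9 and 8.78, each above the highest 542 value. The members at chr7:48131724-48132585 and chr7:60243808-60244096, named as higher in 542, were not in its list, and that in Dlg2 had a fold of 8.14. Folds of the earlier library are as deposited, without normalization, and its estimated depth was 78.0 M tags. Its median fold over the members it overlapped was 11.1, against 7.85 to 9.85 over members in the 542 libraries. The part of this general level in the comparison with 542 was not tested.

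Members were counted around a list of genes of limb and brain patterning. Of 18 genes examined, 3 (Grem1, Bmp2 and Pax6) lie beyond the limit on chromosome 2 and were not analysed here, and Tbx5 had no member within 1 Mb. The other 14 had 1 to 5 members each, 43 in all with 12 that held a CTCF core, and whether this differs from the density along the chromosomes was not tested. Around Hoxd13, where the window was cut at 75 Mb, there were 5 members. Over all members 17.5% were higher in forelimb and 23.4% in forebrain. Of these 5 members 2 and 0 were, too few to compare. The strongest of them lay 743 kb from Hoxd13 at chr2:73924894-73925540, 13.6 kb from the start of Atp5g3. Its fold was 12.7, 16.5 and 22.1 as lowest, median and highest in wt and 8.87, 12.46 and 14.2 in 542, with overlap (542 minus wt -0.53, SE 0.11, limma adjusted p = 0.0463). The tissues differed in this. In PFL the folds were 15.92 and 12.65 in wt and 13.07 and 13.58 in 542. In DFL they were 22.08 and 20.94 in wt against 14.2 and 8.87 in 542. In FB they were 17.16 and 15.75 against 9.12 and 11.85. Around Sox9, a gene of cartilage, the strongest of 5 members, 369.6 kb from its start at chr11:112411861-112413071, had DFL folds of 9.97 to 13.6, PFL folds of 5.28 to 6.99 and FB folds of 5.02 to 10.7 (DFL minus PFL 0.88, SE 0.15, limma adjusted p = 0.00970). Around Myc the strongest of 2, in an intron of Pvt1 at chr15:62257302-62258519, had folds of 6.93 to 11.5 in forelimb and 5.72 to 8.36 in forebrain (forebrain minus forelimb -0.55, SE 0.11, limma adjusted p = 0.00231). Around Hoxa13 the strongest of 3, in an exon of Skap2 at chr6:51857739-51858236, held a core and had folds of 9.65 to 14.8 in forelimb and 14.3 to 19.7 in forebrain (0.34, SE 0.12, limma adjusted p = 0.0468).

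The limits of the rule cut through a continuum. Just inside 10 kb was a region in an intron of Clec16a with a mean percentile of 27.4. Just outside were one in an intron of Usp29 with 51.1 and one near Rassf8 with 76.5. At the rank limit, the members at chr17:59382188-59383752 and in an intron of Tenm3 had their lowest ranks at 49996 and 49978. Distal regions at chr1:45672475-45673502 and chr11:94265009-94265837 missed only 1 list each, at ranks of 50006 in wt FB replicate 1 and 50032 in 542 DFL replicate 2.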

How the data were processed

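The authors made 13 ATAC-seq libraries from E12.5 embryos. By the labels, 12 of them form 6 groups of 2 replicates. Reads were trimmed with cutadapt, aligned with Bowtie to mm10 (wt) or to a genome with the insertion (542), cleared of duplicates with Picard, converted with bedtools and called per library with MACS2. The insertion lies beyond the limit on chromosome 2, so coordinates of the regions used are those of mm10.

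The deposited fold is the ratio of tags at a summit to the local background. The −log10 p-value of each deposited summit comes from MACS2, as does the deposited −log10 q-value. The deposited score, a whole-number form of the q-value, was not used. Regions were ranked by −log10 q-value, then fold, and overlaps needed 1 bp. The members and the lists of motifs and genes were chosen with earlier results of these data known.

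Library depth was estimated. Tags were recovered from fold and p-value for 95.3 to 99.0% of summits (tolerance 0.01 of −log10 p) and give the library totals. Intervals are exact Clopper-Pearson intervals at 95%.

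Log2 of the highest summit fold in a region was quantile-normalised over 18691 regions and fitted with limma 3.58.1 (R 4.3.3) with a mean-variance trend and 6 group means, and called at an adjusted p of 0.05. No pseudocount was needed, since each region had a summit in all 12 libraries. On simulated data for the forebrain contrast, with 200 of 18691 regions changed, 65% of changes of 0.5 and 97% of changes of 1 on the log2 scale were recovered, and 7.43% of calls were false. Sequence was read from GRCm38 and starts from GENCODE M21 with Python 3.11.15, numpy 2.4.6, pandas 2.3.3 and scipy 1.17.1, and figures were drawn with matplotlib 3.10.9.

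Named regions were the 5 members highest by mean percentile, and, among called members with groups that did not overlap after normalization, the 5 largest differences per direction between forebrain and forelimb and the 3 per direction for the other contrasts. The 3 with the smallest SD among members above the median percentile, the 3 farthest from a start, the 2 on each side of each limit and the strongest within 1 Mb of 18 genes were added. Sequences are shown for the 6 members with the highest mean percentile that held a core within 50 bp of the summit, chromosome 18 left out. A nearest gene is named for position only, and some items that these rules select are not reported here. Alternatives included other distance limits, list lengths, summit summaries and scalings, a replicate block, and each library left out in turn.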

Additional observations from a re-analysis of the deposited data

How the results depend on the processing

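Members numbered 840 beyond 50 kb, 830 with lists of 20000 regions, 7405 with all deposited regions and 3808 to 3917 with a library left out. The core share was 21.8% beyond 50 kb, 17.9% with all deposited regions, 32.2% with a relaxed core, 39.1% with the matrix and 24.5 to 25.3% with a library left out. The earlier library overlapped 91.1%, 88.8% and 98.8% under the 3 choices of members, 95.3% when regions were ranked over all chromosomes first (chosen after seeing the data), and 93.0 to 94.1% with a library left out. Under those 3 choices, 211, 204 and 1854 members were higher in forebrain and 161, 113 and 1759 in forelimb, 51, 37 and 639 in DFL and 24, 9 and 419 in PFL. Beyond 50 kb and with lists of 20000, 3 and 2 were higher in 542, and 2 and 2 in wt. With log2 fold as deposited, counts were 1669 in forebrain, 438 in forelimb, 52 in PFL and 5 in 542. With the mean fold of all summits they were 406, 362, 20 (DFL), 4 (PFL), 2 (542) and 5 (wt). With the earlier library added, 10 were higher in 542. With a library left out, counts ran from 693 to 940 in forebrain, 556 to 670 in forelimb, 83 to 178 in DFL, 43 to 81 in PFL, 3 to 13 in 542 and 4 to 16 in wt, and for the tissue difference by genotype from 0 to 0 and from 0 to 1 (1 without 542 PFL replicate 2). A stricter distance limit or a shorter list lowers the counts of called members by leaving fewer members; other causes were not tested. Groups showed no shared deviation by replicate number (correlations of deviations -0.04 to 0.02 over 15 pairs of groups). The study's methods do not say whether tissues with the same number came from the same embryos, and these correlations cannot decide it. With a replicate block the counts were 875, 652, 181, 82 and 14, and 9 in wt. Of 520 values for the 22 regions named by a contrast, 501 stayed past the threshold, 19 did not and 0 reversed, and 30 alternatives gave no value. The 22 regions were picked as the largest calls. Their values under other distance limits came from the main fit and could not change. The tally is therefore no measure of how steady the calls are. In the simulation 65% of log2 changes of 0.5 were recovered, so small differences can be missed, and the effect of depth on this was not tested. Only 200 of 18691 regions were changed there, while 31.45% of all regions were called in the forebrain contrast. The simulated shares therefore need not hold for the data. Replicates correlated over members at r of 0.755 (542 PFL) to 0.876 (wt FB).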

Other observations

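Promoters were more often shared than distal regions. Of all merged regions within 1 kb of a start, 57.3% were in all 12 lists, against 6.10% of distal regions. Between these, 2746 shared regions lay 1 to 10 kb from a start and were not members.

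Of the 936 members with a CTCF core, 18 (1.92%) were higher in DFL and 17 (1.82%) in PFL. These shares are near the 2.22% and 1.33% of all 18691 regions tested. Among the 2826 members without a core they were 5.87% and 2.65%. Tissue means of the percentile lay within 10 points of each other in 1170 members (31.1%).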
